A study of Rattus norvegicus with 6 samples.

Results

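Txnrd1 (ENSRNOG00000009088), Nqo1 (ENSRNOG00000012772) and Gclc (ENSRNOG00000006302) encode 3 redox enzymes that are widely used as readouts of the transcription factor NRF2. These 3 genes were taken out of 34052 features by their Ensembl identifiers, and the symbols are those given with the identifiers. They were chosen by their higher FPKM in erastin than in control libraries, so every erastin-to-control value of the 3 genes below is a description and carries no test. The cells were neonatal rat ventricular cardiomyocytes, heart muscle cells taken from the ventricles of newborn rats. The erastin group was kept in 10 µM erastin for 24 h (n = 3 libraries), and the control libraries (n = 3), titled as controls, are called vehicle in the name of the deposited table, with no vehicle specified. The labels give neither strain nor litter, and no treatment time for the control libraries. They also leave unsaid whether replicates are separate cultures, so the spread between libraries may be technical. All 3 genes passed the filter of at least 1 FPKM (fragments scaled to feature length and library total) in at least 3 libraries, as did 13576 features in all.

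NRF2 is held at a low level in resting cells by the adaptor KEAP1, which marks it for degradation. Oxidants and electrophiles disable KEAP1, and NRF2 then binds antioxidant response elements together with small MAF proteins. Its targets cover thiol reduction, quinone reduction and glutathione synthesis, and Txnrd1, Nqo1 and Gclc stand for these arms in that order. Erastin blocks the import of cystine, from which cells make the cysteine of glutathione, and serves to trigger ferroptosis, a form of cell death driven by iron and peroxidised lipids. The markers of heart cell types and the other NRF2 targets could not be read, since no table used here pairs their symbols with the identifiers, and they were not analysed here.

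The start regions of the 3 genes are shown because the genes were higher together and because NRF2 acts through a short DNA element. RefSeq promoter windows of the rat assembly GRCr8, each from 250 bases before to 50 bases after an annotated start, were matched by symbol and gave 4 windows for the 3 genes, of which 2 belong to Txnrd1. Capitals mark matches to the motifs searched, and each sequence is printed 5′ to 3′ on the strand of its gene. The second Txnrd1 window (chr7:22755905-22756154, minus strand) and the Nqo1 window (chr19:52220268-52220517, minus strand) are given for the 250 bases before the start. The first Txnrd1 window, which holds none of the motifs searched, is not printed. Both Txnrd1 starts lie inside the annotated gene, 37702 and 46649 bases downstream of its outermost start, and the Nqo1 start is the outermost one. The Gclc start lies 225 bases downstream of the outermost start of its gene. Of the Gclc window (chr8:87510226-87510250, plus strand) only the 25 bases that lie before the outermost annotated start are given, since the rest lies inside the annotated gene.
Txnrd1, second start: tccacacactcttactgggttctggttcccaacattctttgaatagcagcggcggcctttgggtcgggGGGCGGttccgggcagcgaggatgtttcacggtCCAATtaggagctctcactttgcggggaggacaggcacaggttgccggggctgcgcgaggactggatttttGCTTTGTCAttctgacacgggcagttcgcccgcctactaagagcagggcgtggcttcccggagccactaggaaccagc
Nqo1: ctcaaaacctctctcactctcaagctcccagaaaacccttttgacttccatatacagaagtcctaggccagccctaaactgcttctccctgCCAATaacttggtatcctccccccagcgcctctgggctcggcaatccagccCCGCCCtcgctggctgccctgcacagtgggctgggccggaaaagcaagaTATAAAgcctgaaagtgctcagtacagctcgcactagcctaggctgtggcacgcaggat
Gclc: gtagccTATAAAatccggagcgcgg

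The core of the antioxidant response element, TGACNNNGC on either strand, was found in 1 of these 4 windows. It lies in the second Txnrd1 window from -78 to -70, counted from the start, and reads GCTTTGTCA there, on the strand opposite to the motif. Of 33469 windows of 27457 rat genes, 12.1% hold this core. The same core with its free bases fixed as TGACTCAGC, a form bound by NRF2 and small MAF proteins, is in 0.415% of all windows and in 0 of the 4. The related AP-1 site TGACTCA, which overlaps that form, is in 4.63% of all windows and the amino acid response element core TTGCATCA in 0.795%, and 0 of the 4 windows hold either.

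General promoter letters were present in most of the windows. The GC box GGGCGG was found in 3 of the 4 windows, at -182 to -177 in the second Txnrd1 window, at -108 to -103 in Nqo1 on the opposite strand and at -75 to -70 in Gclc, against 33.1% of all windows. A CCAAT box lies at -149 to -145 in the second Txnrd1 window and at -159 to -155 in Nqo1, with another at 45 to 49 after the Nqo1 start, and 37.5% of all windows hold one. The TATAAA letters lie at -59 to -54 in Nqo1 and at -244 to -239 in Gclc, against 14.2% of all windows. The first Txnrd1 window holds none of the 7 motifs searched. The GC content of the bases before the start ranged from 42.0% in that window to 74.8% in Gclc, with 59.6% in the second Txnrd1 window and 56.4% in Nqo1. Positions and GC content in Gclc and Txnrd1 are counted from starts inside the annotated gene. The GC box of Gclc lies in the part not printed. These matches describe letters within short windows. Elements farther from the start were not searched.

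Txnrd1, the cytosolic thioredoxin reductase that uses NADPH to keep thioredoxin reduced, was the most abundant of the 3 genes and had the largest fold. Its level was 56.4, 54.7 and 55.0 FPKM in control replicates 1, 2 and 3 and 659, 659 and 727 FPKM in erastin replicates 1, 2 and 3. The lowest erastin library was 11.7-fold above the highest control library, so the groups lay far apart. The mean level went from 55.3 ± 0.908 to 682 ± 39.6 FPKM (SD, n = 3 each), a fold of 12.3. On the log2(FPKM + 1) scale the difference was 3.60 (SE 0.045). These levels rest on 2136 to 2754 recovered reads per control library and 24802 to 27331 per erastin library, over a counted length of 3377 bases. By abundance among all features, Txnrd1 went from rank 1719 in the control mean to rank 78 in the erastin mean, and its gain of 626 FPKM ranked 12 among tested features.

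Nqo1, a reductase that converts quinones to hydroquinones by a transfer of both electrons in one step, was the least abundant of the 3 genes. It was at 12.6, 8.96 and 9.58 FPKM in control replicates 1, 2 and 3 and at 74.5, 73.7 and 84.6 FPKM in erastin replicates 1, 2 and 3. Control replicate 1 was the high one of its group, and the lowest erastin library was still 5.85-fold above it. The mean went from 10.4 ± 1.95 to 77.6 ± 6.10 FPKM (SD, n = 3 each), a fold of 7.48. The difference on the log2(FPKM + 1) scale was 2.80 (SE 0.13). Nqo1 had the fewest reads of the 3 genes, 174 to 229 per control library and 1312 to 1487 per erastin library, over a counted length of 1579 bases. Its abundance rank went from 7200 in the control mean to 1303 in the erastin mean.

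Gclc, the catalytic subunit of glutamate-cysteine ligase, which carries out the first and rate-limiting step of glutathione synthesis, had the smallest fold. Its level was 34.2, 36.8 and 32.1 FPKM in control replicates 1, 2 and 3 and 113, 112 and 120 FPKM in erastin replicates 1, 2 and 3. The groups did not overlap, with the lowest erastin library 3.03-fold above the highest control library. The mean went from 34.4 ± 2.35 to 115 ± 4.52 FPKM (SD, n = 3 each), a fold of 3.34, and the difference on the log2(FPKM + 1) scale was 1.71 (SE 0.055). Recovered reads were 1125 to 1671 per control library and 3827 to 4081 per erastin library, over a counted length of 3045 bases. The abundance rank of Gclc went from 2869 in the control mean to 818 in the erastin mean.

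**Figure D1:**
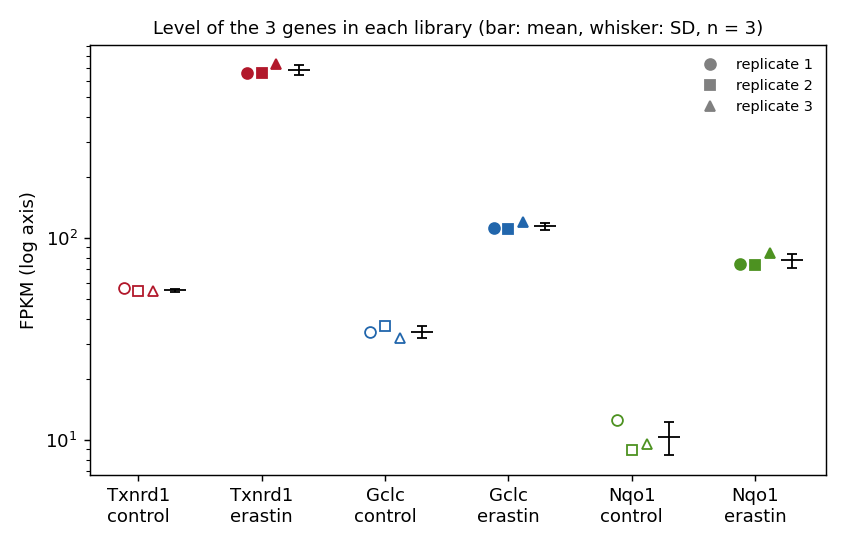
FPKM (log axis) of Txnrd1, Gclc and Nqo1 in each of the 3 control (open symbols) and 3 erastin libraries (filled symbols), with the mean (bar) and SD (whisker, n = 3). Erastin libraries lie above control libraries for each gene, from 55.3 to 682 FPKM for Txnrd1, 34.4 to 115 FPKM for Gclc and 10.4 to 77.6 FPKM for Nqo1 in the mean.

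The erastin libraries lay above all control libraries for 3 of the 3 genes, as they did for 45.7% of tested features. A mean FPKM at least 2-fold higher was also found for 3 of the 3, and for 8.25% of tested features. For comparison, 42.3% of the tested features were called higher in erastin libraries by limma at a Benjamini-Hochberg adjusted p under 0.05. Nothing is read from these counts for the 3 genes, which were chosen on this comparison. FPKM is scaled to the library total, and the median tested feature was 0.13 higher in erastin libraries on the log2(FPKM + 1) scale. With libraries centred on their median log ratios the differences were 3.47 for Txnrd1, 2.67 for Nqo1 and 1.58 for Gclc. In whole-culture RNA, fewer cells of a type and less RNA per cell cannot be told apart.

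Among 13576 tested features ordered by the fold of mean FPKM, Txnrd1 was at position 52, Nqo1 at 81 and Gclc at 329. The control levels of features with larger folds are shown in the plot of fold by control level and were not counted. Against features whose control mean was within 1.2-fold of its own, Txnrd1 was exceeded by 1 of 661, Nqo1 by 3 of 1318 and Gclc by 20 of 1065. The median fold of these features was 1.05 at the control level of Txnrd1, 1.15 at that of Nqo1 and 1.11 at that of Gclc. At least 2-fold higher were 29 of the 661, 84 of the 1318 and 52 of the 1065. Counting features with both a larger fold and a higher erastin level than the gene itself gave 3 for Txnrd1, 16 for Nqo1 and 47 for Gclc.

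**Figure D2:**
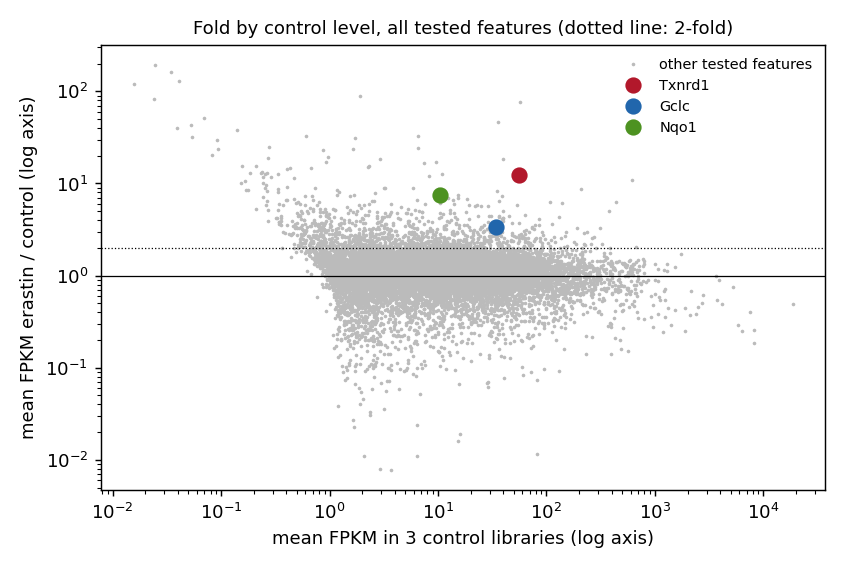
Fold of mean FPKM, erastin over control (log axis), against the mean FPKM of the 3 control libraries (log axis), with 1 grey point per tested feature, the solid line at no change and the dotted line at 2-fold. The 12 features with a mean of 0 in a group are not drawn, and Txnrd1 (12.3-fold), Nqo1 (7.48-fold) and Gclc (3.34-fold) lie above the bulk of features of like control level.

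The 3 genes kept the same order of level per length in both groups while the distances between them changed. Txnrd1 was above Gclc and Gclc above Nqo1 in all 6 libraries, and within each group the values of neighbouring genes did not overlap. Ratios between genes within a library do not depend on the library total. Each log2 change of a ratio is the difference between group means of log2 ratios. It can differ slightly from the log2 of the quotient of the printed mean ratios. The ratio of Txnrd1 to Gclc FPKM was 1.65, 1.49 and 1.71 in control replicates 1, 2 and 3 and 5.84, 5.91 and 6.07 in erastin replicates 1, 2 and 3. Its mean went from 1.62 ± 0.117 to 5.94 ± 0.115 (SD, n = 3 each), a change of 1.88 on the log2 scale, so Txnrd1 pulled away from Gclc in each erastin library.

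The ratio of Nqo1 to Gclc FPKM was 0.369, 0.244 and 0.298 in control replicates 1, 2 and 3 and 0.661, 0.661 and 0.706 in erastin replicates 1, 2 and 3. Its mean went from 0.303 ± 0.0627 to 0.676 ± 0.0260 (SD, n = 3 each), a log2 change of 1.18, so Nqo1 came closer to Gclc. The ratio of Txnrd1 to Nqo1 changed least. It was 4.47, 6.10 and 5.74 in control replicates 1, 2 and 3 and 8.84, 8.94 and 8.59 in erastin replicates 1, 2 and 3. Its mean went from 5.44 ± 0.855 to 8.79 ± 0.180 (SD, n = 3 each), a log2 change of 0.71, and the low control value was that of replicate 1, where Nqo1 was high. Leaving out that library gave a log2 change of 0.57 for this ratio and of 1.33 for Nqo1 to Gclc.

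**Figure D3:**
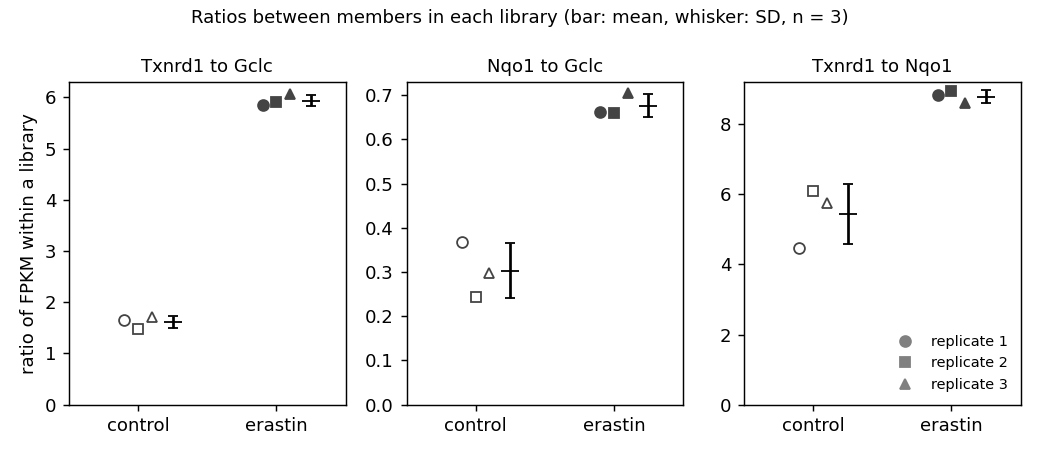
Ratio of FPKM between 2 of the genes within each library, for Txnrd1 to Gclc, Nqo1 to Gclc and Txnrd1 to Nqo1, with control libraries as open and erastin libraries as filled symbols, the mean as a bar and the SD as a whisker (n = 3). Each ratio is higher in all erastin than in all control libraries, with means going from 1.62 to 5.94, from 0.303 to 0.676 and from 5.44 to 8.79.

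Added together, the 3 genes made up 0.0184 ± 0.000517% of the FPKM of a control library and 0.162 ± 0.00904% of that of an erastin library (SD, n = 3 each). The summed level went from 100.1 ± 3.27 to 874 ± 50.1 FPKM (SD, n = 3 each). Txnrd1 held 55.3 ± 1.35% of the control sum and 78.0 ± 0.110% of the erastin sum (SD, n = 3 each). The part of Gclc went from 34.3 ± 2.00% to 13.1 ± 0.240% and that of Nqo1 from 10.3 ± 1.69% to 8.87 ± 0.186% (SD, n = 3 each). The reductase of thioredoxin was thus the main part of the summed level in both groups.

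The spread between libraries of 1 group was not used to choose the genes, and it differed between them when all 3 libraries of a group were used. In control libraries Txnrd1 had a coefficient of variation (CV, the SD as a percentage of the mean) of 1.64%, against 2.07% from counting error alone. Gclc had a CV of 6.83% against 2.78% from counting, and Nqo1 one of 18.8% against 7.04%. The CVs with 1 library left out were added after the values were seen. Leaving out the library farthest from the others lowers the SD by construction, and a CV of so few libraries is imprecise. Without control replicate 1 the CV of Nqo1 was 4.71%, below its counting error of 7.24%. It was 19.3% without control replicate 2 and 23.9% without control replicate 3. For Txnrd1, whose CV with all 3 libraries did not exceed its counting error, the values were 0.374%, 1.79% and 2.16% without control replicates 1, 2 and 3. The CV of Gclc stayed above its counting error with any 1 control library left out, at 4.43% without control replicate 2, 5.19% without control replicate 3 and 9.62% without control replicate 1. With all 3 control libraries, 94.9% of 1318 features of like control level had a smaller CV than Nqo1, with a median of 5.56%. For Gclc 85.4% of 1065 features had a smaller CV (median 3.60%), and for Txnrd1 16.8% of 661 did (median 3.42%).

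In erastin libraries the CVs were 5.80% for Txnrd1, 7.86% for Nqo1 and 3.94% for Gclc, each above its counting error of 0.617%, 2.68% and 1.58%. Without erastin replicate 3, the library farthest from the others for all 3 genes, they were 0.021%, 0.812% and 0.758%, each below its counting error. With erastin replicate 1 or 2 left out instead, each CV stayed above its counting error. These CVs of fewer libraries are imprecise and were likewise added after the values were seen. The source of the spread was not tested. Of features at a like erastin level, 82.8% of 58 had a smaller CV than Txnrd1, 92.1% of 544 a smaller one than Nqo1 and 66.0% of 373 a smaller one than Gclc. Erastin replicate 3 was the highest library for all 3 genes, by 6.70% above the group mean for Txnrd1, 9.05% for Nqo1 and 4.51% for Gclc. The same library was the highest of its group for 36.6% of tested features. Control libraries showed no such common order. Nqo1 and Txnrd1 were highest in control replicate 1, by 21.4% and 1.87%, while Gclc was highest in control replicate 2, by 7.07%. Without erastin replicate 3 the folds were 11.9 for Txnrd1, 7.14 for Nqo1 and 3.26 for Gclc, and without control replicate 1 the fold of Nqo1 was 8.37.

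**Figure D4:**
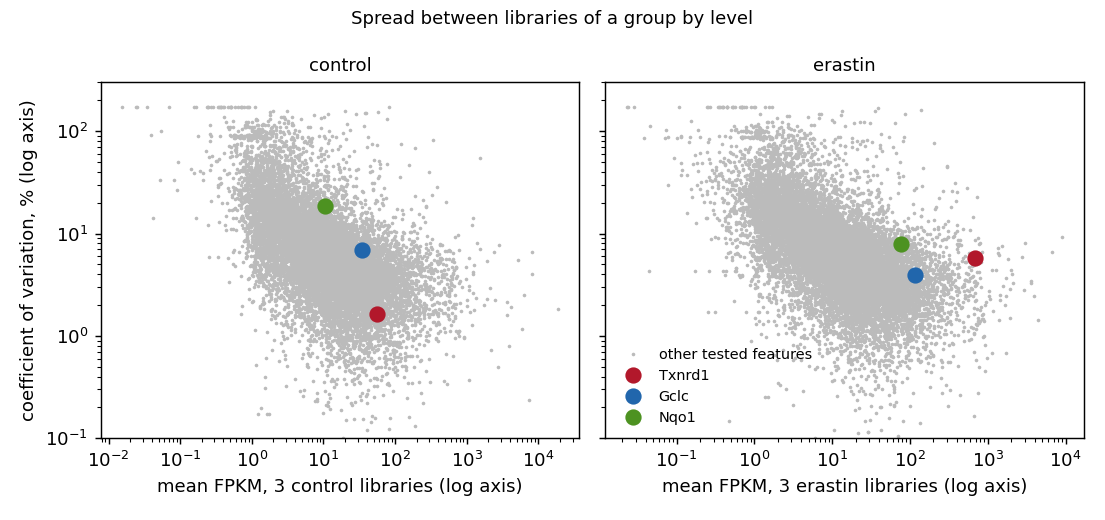
CV between the 3 libraries of a group in percent (log axis) against mean FPKM of the group (log axis), for control (left) and erastin libraries (right), with 1 grey point per tested feature; features with a mean of 0 or a CV under 0.1% are not drawn. Nqo1 lies near the upper edge of features of like level in control libraries (18.8%, and 4.71% without control replicate 1), and Txnrd1 moves from 1.64% to 5.80% (0.021% without erastin replicate 3).

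The features most like each gene were found by the root mean square difference, over the 6 libraries, of log2(FPKM + 1) minus its control mean, among 6733 Ensembl-numbered features at or over the median level of 12.5 FPKM. This measure mostly follows the size of the change, on which the genes were chosen, and is a description. The closest feature to Gclc was ENSRNOG00000021144, with a difference of 0.012, which went from 19.4 ± 1.34 to 66.0 ± 2.86 FPKM (SD, n = 3 each), a fold of 3.40. The 10 features closest to Gclc lay within 0.062 of it and had folds of 3.18 to 3.60. Each of these 10 was nearer to Gclc than the closest features of Txnrd1 and Nqo1, given below, were to theirs. Such nearness also depends on how many features have a like fold and on the spread of the gene within a group. The closest feature to Txnrd1 was ENSRNOG00000026605, with a difference of 0.12, which went from 10.8 ± 1.28 to 139 ± 20.7 FPKM (SD, n = 3 each), a fold of 12.8. The 10 features closest to Txnrd1 reached out to 0.43, with folds of 8.28 to 18.6, and those closest to Nqo1 lay at 0.14 to 0.22, with folds of 6.08 to 8.82. The genes, whose folds differ, were not each other's closest features. Seen from Txnrd1, Nqo1 was at position 16 with a difference of 0.58 and Gclc at position 104 with 1.33.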

How the data were processed

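RNA from 6 libraries of cultured neonatal rat ventricular cardiomyocytes was measured, 3 control and 3 erastin, grouped by title. Libraries were poly(A)-selected, strand-marked and read from both ends, per the labels' protocols. The authors deposited 1 table of FPKM. The submitters' processing notes name HISAT2 2.0.5 and DESeq2 without a role. For the counting tool, build and annotation, nothing is stated in the sources used here.

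Reads and counted lengths were recovered from the FPKM steps (within 0.002 of a whole read for 100.0% of 13576 tested features). Library totals were 11126968 to 14914827 reads. All-feature calls came from limma 3.58.1 (R 4.3.3), fitted with trended and robust variances to log2(FPKM + 1). The recovery and the fit were also run on simulated data with a constant dispersion and far fewer changed features than here, with outcomes not given. Chi-square per feature between replicate libraries had means of 2.96 to 5.41 and medians of 0.60 to 0.77. A mean above the median is usual for counting error too, so how the difference is divided over features was not tested. Each library was counted separately, though this check cannot show whether replicates are separate cultures.

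The members and lists were chosen with earlier results of these data known. Named were the 3 genes and, of the features most like them, 2 identifiers. Identifiers matched by the reference table numbered 0, so the pathway and marker lists were not used here. Alternatives were pseudocounts, filters, scalings, priors, voom, a replicate block and each library left out. Python 3.11.15, numpy 2.4.6, pandas 2.3.3 and matplotlib 3.10.9 were used.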

Additional observations from a re-analysis of the deposited data

How the results depend on the processing

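All 3 genes, which were chosen as higher in erastin libraries, stayed so in each of the 17 alternatives. By construction, the other filters, the constant prior and the replicate block leave the log2 differences of the 3 genes unchanged. The log2 differences moved by more than the spread between libraries only under rescaling. Txnrd1 went from 3.60 to 3.47 with centring on the median log ratio and to 3.48 with quantile normalization, without the 100 most abundant features and with voom and TMM factors (trimmed mean of M-values). Gclc went from 1.71 to 1.58, 1.57, 1.60 and 1.60 in the same order. Leaving out 1 library gave 3.55 to 3.62 for Txnrd1, 2.71 to 2.93 for Nqo1 and 1.67 to 1.76 for Gclc. The ratios between genes kept their direction, with log2 changes of 1.82 to 1.92 for Txnrd1 to Gclc, 1.03 to 1.33 for Nqo1 to Gclc and 0.57 to 0.79 for Txnrd1 to Nqo1.

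With the replicate number as a block 8768 features changed, against 9011 without it (limma, adjusted p under 0.05). The labels do not say whether libraries with the same number share a preparation. The correlations of their deviations were -0.03, 0.07 and 0.03, which cannot settle it. Not each library correlated best with its own number. With centring, 49.8% of the changed features were higher, against 63.7% as deposited. Centring takes out the shift common to most features, so a near-even split is largely built in. The pathway list alternatives were not run. Nqo1 had the fewest reads of the 3 genes, with a counting error of 7.04% in control libraries.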
